A study of Mus musculus with 32 samples.

Results

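The genes described here are 10 members of the Serpina family, the clade A serpins, in mouse liver. They were chosen by gene symbol as Serpina1a, Serpina1b, Serpina1c, Serpina1d, Serpina1e, Serpina3k, Serpina3m, Serpina3n, Serpina4-ps1 and Serpina6, and they are 10 of the 41585 gene rows in each of the deposited count tables, which hold 27 rows with a symbol that starts with Serpina. RNA-seq read counts per gene were available for 32 livers, 4 in each of 8 groups, with females in one table and males in the other. The mice were C57BL/6 by their labels and C57Bl/6J by the study's methods, were 10 weeks old at the start and ate their diet for 8 weeks. Wild type (WT) mice and Cyp2b-null mice, which lack Cyp2b9, Cyp2b10 and Cyp2b13, were fed a normal chow diet (ND) or a high fat diet that is choline-deficient and L-amino acid-defined (CDAHFD, with 62% fat and 0.1% methionine). The study used this diet as a model of fatty liver with inflammation and fibrosis, and the comparisons ask how the diet, the loss of Cyp2b and sex relate to liver expression. The WT mice were purchased and the Cyp2b-null mice came from a separate CRISPR-made line that lacks the genes in every tissue, so genotype and colony cannot be told apart, and sex and count table cannot be told apart either.

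Serpins inhibit proteases through an exposed reactive centre loop, which the target protease cleaves and to which it then stays bound. Hepatocytes secrete many clade A serpins into plasma. Serpina1 encodes alpha-1 antitrypsin, the main plasma inhibitor of neutrophil elastase, and in C57BL/6 mice it is present as 5 neighbouring copies, Serpina1a to Serpina1e. The mouse has also expanded Serpina3, the counterpart of human alpha-1 antichymotrypsin, into several genes that include Serpina3k, Serpina3m and Serpina3n. Serpina6 encodes corticosteroid-binding globulin, a carrier of glucocorticoids in blood that is no protease inhibitor, and Serpina4-ps1 is annotated as a transcribed pseudogene.

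All 10 members lie on chromosome 12 of GRCm38.p6, between 103646630 and 104414334, a span of 768 kb. Serpina6 lies at one end (103646630 to 103657218), followed by Serpina1b (103728156 to 103738189), Serpina1d (103763587 to 103773633), Serpina1a (103853295 to 103863619), Serpina1c (103894926 to 103904950) and Serpina1e (103946931 to 103956897). Serpina4-ps1 (104077959 to 104086920) comes next, and Serpina3k (104338486 to 104345739), Serpina3m (104387157 to 104394259) and Serpina3n (104406646 to 104414334) lie at the other end.

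The Serpina1 copies are so alike that reads can be shared among them. Over 1242 coding bases the 5 genes were 96.3% to 98.5% identical in 10 pairs, and they differed at 86 positions. The differences were not spread evenly. Cut into stretches of 60 bases, the coding sequence had a median of 4.5 variable positions in a stretch. A separate scan for the 60 bases with the most variable positions gave coding bases 1102 to 1161, with 18. Being chosen as the highest, this stretch was bound to lie above the median. It lies in exon 5 of 5 on the minus strand and includes the codons of the reactive centre loop. That stretch is printed below from the GENCODE vM21 transcripts, 5′ to 3′, because it tells the copies apart and encodes the part of the protein that meets the protease. Capitals mark every position at which the 5 genes do not all have the same base.
Serpina1a, chr12:103853756-103853815: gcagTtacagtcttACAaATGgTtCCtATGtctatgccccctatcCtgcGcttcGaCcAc
Serpina1b, chr12:103728323-103728382: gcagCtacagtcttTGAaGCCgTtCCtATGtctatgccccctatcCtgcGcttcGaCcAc
Serpina1c, chr12:103895093-103895152: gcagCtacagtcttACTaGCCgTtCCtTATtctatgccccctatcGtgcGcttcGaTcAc
Serpina1d, chr12:103763761-103763820: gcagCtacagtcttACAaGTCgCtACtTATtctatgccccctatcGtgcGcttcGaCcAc
Serpina1e, chr12:103947099-103947158: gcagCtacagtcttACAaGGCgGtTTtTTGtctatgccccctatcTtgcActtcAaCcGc
In this stretch Serpina1e had 8 bases found in no other copy, Serpina1a had 3, and the other copies had 2 each.

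How many windows as long as 1 read were shared set apart the genes whose counts are uncertain. Of all 150-base windows of the annotated transcript, 50.5% of those of Serpina1a and of Serpina1c occurred without a mismatch in another gene. The share was 23.3% for Serpina1d, 16.4% for Serpina1b and 7.57% for Serpina1e. A pseudogene, Gm8893, also shared windows with the Serpina1 genes. Serpina3k and Serpina3m shared 0.262% and 0.331% of their windows with each other, at a coding identity of 82.6% to 91.0% among the 3 Serpina3 genes, and Serpina3n, Serpina4-ps1 and Serpina6 shared 0%. How reads that map to several genes were counted is not given in the sources used here, so the split among Serpina1a, Serpina1b, Serpina1c and Serpina1d is uncertain, and their sum with Serpina1e is given beside them.

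The promoters of the copies were also alike. RefSeq windows on GRCm38.p6 from 250 bases before to 50 bases after the start were matched for 6 of the 10 members, the 5 Serpina1 genes and Serpina3n. The windows of the Serpina1 genes were 91.4% to 97.6% identical to each other, and 46.3% to 48.9% identical to that of Serpina3n. The windows of Serpina1b, expressed in both sexes, and of Serpina1e, high in males, are shown because Serpina1e differed between the sexes and Serpina1b was not called different, while the windows hold nearly the same bases: they matched at 97.6% over 250 aligned columns, with the annotated start of Serpina1e shifted by 50 bases. Both are on the minus strand and written 5′ to 3′, and capitals mark the motif GTTAAT, part of the site of the hepatocyte factor HNF1.
Serpina1b, chr12:103738140-103738439: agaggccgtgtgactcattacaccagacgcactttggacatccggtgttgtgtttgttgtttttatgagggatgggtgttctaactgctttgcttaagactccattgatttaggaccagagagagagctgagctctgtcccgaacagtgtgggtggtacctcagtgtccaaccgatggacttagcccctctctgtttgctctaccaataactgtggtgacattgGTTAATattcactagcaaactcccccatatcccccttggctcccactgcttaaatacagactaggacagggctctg
Serpina1e, chr12:103956848-103957147: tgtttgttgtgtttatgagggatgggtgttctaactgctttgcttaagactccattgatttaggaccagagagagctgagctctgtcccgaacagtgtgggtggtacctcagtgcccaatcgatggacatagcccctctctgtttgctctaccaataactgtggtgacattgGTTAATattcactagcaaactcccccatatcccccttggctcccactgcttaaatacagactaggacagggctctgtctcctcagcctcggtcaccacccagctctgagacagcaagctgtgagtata
GTTAAT, searched on both strands, was found in each of the 5 Serpina1 windows and not in that of Serpina3n, and 7.10% of all 32851 promoter windows hold it. The STAT motif (TTC, any 3 bases, GAA) and the FOXA motif TGTTTAC were in none of the 6 windows, against 8.30% and 3.65% of all windows. These matches describe letters in a window and do not show binding.

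Library totals ranged from 2906411 to 6873396 counts in females and from 4483301 to 10166959 in males. The labels were checked first. Cyp2b13 had 470 to 2351 counts in WT females and 0 to 1 in Cyp2b-null females, whereas in males it was at most 6 in both genotypes. Male genotypes were separated by Cyp2b10 on ND (33 to 97 counts in WT, 1 to 9 in Cyp2b-null) and by Cyp2b9 on CDAHFD (118 to 364 in WT, 2 to 7 in Cyp2b-null). Xist had 798 to 4033 counts in females and 0 to 15 in males, and Ddx3y 0 to 1 and 262 to 913. The 8 hepatocyte markers summed to 60243 to 195103 CPM over the 32 livers. Counts were scaled to a common library total (counts per 1000000, CPM) after trimmed mean of M values (TMM) scaling within each table. All 10 members passed the filter on low counts in both tables, with 13226 genes tested in females and 13460 in males. Serpina4-ps1 passed it only through ND libraries, as no CDAHFD library held more than 4 counts of it. A gene was called changed where the adjusted p of edgeR's quasi-likelihood test was under 0.05. The p-values measure the spread between the libraries of a group.

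The members took a large part of the liver's reads. In ND-fed mice their share of all counts was 2.03% ± 0.134 (SD, n = 4) in WT females, 2.05% ± 0.125 in Cyp2b-null females, 3.34% ± 0.633 in WT males and 3.39% ± 0.231 in Cyp2b-null males. In CDAHFD-fed mice the shares were 1.21% ± 0.105, 1.30% ± 0.180, 1.49% ± 0.588 and 1.40% ± 0.236 in the same order. To compare levels between genes, CPM was divided by transcript length in kb, on a scale set over all 32 libraries. The full length was used, without correction for windows shared with other genes. That share was 16.4% for Serpina1b, 23.3% for Serpina1d, 50.5% for Serpina1c and Serpina1a and 7.57% for Serpina1e. Its part in the order of the Serpina1 copies was not tested. In ND-fed WT females the order was Serpina1b (4271 CPM per kb), Serpina1d (3436), Serpina1c (2281), Serpina1a (1765), Serpina3k (1463), Serpina6 (445), Serpina3m (276), Serpina3n (179), Serpina1e (74.1) and Serpina4-ps1 (0.978). Serpina1b with Serpina1d, and Serpina1a with Serpina3k, overlapped in their libraries. In ND-fed WT males Serpina1e (5999) and Serpina3k (5087) had the highest means, followed by Serpina1b (4042), Serpina1d (3508), Serpina1c (3004) and Serpina1a (1656). Each neighbouring pair from Serpina1e to Serpina1c overlapped in its libraries, and the highest Serpina1b liver (4517) was also above the lowest Serpina1e liver (4392). Serpina3m (197), Serpina6 (168) and Serpina3n (163) overlapped as neighbours, and Serpina4-ps1 (14.7) was last. In CDAHFD-fed WT mice Serpina1b had the highest mean in both sexes, at 2133 in females and 2399 in males. In males its lowest liver (1883) was below the highest Serpina3k liver (2437). The mean of Serpina3n stood at 310 and 252, above those of Serpina6 (202 and 142) and Serpina3m (169 and 131). In females the lowest Serpina3n liver (239) was below the highest Serpina6 liver (271).

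**Figure D1:**
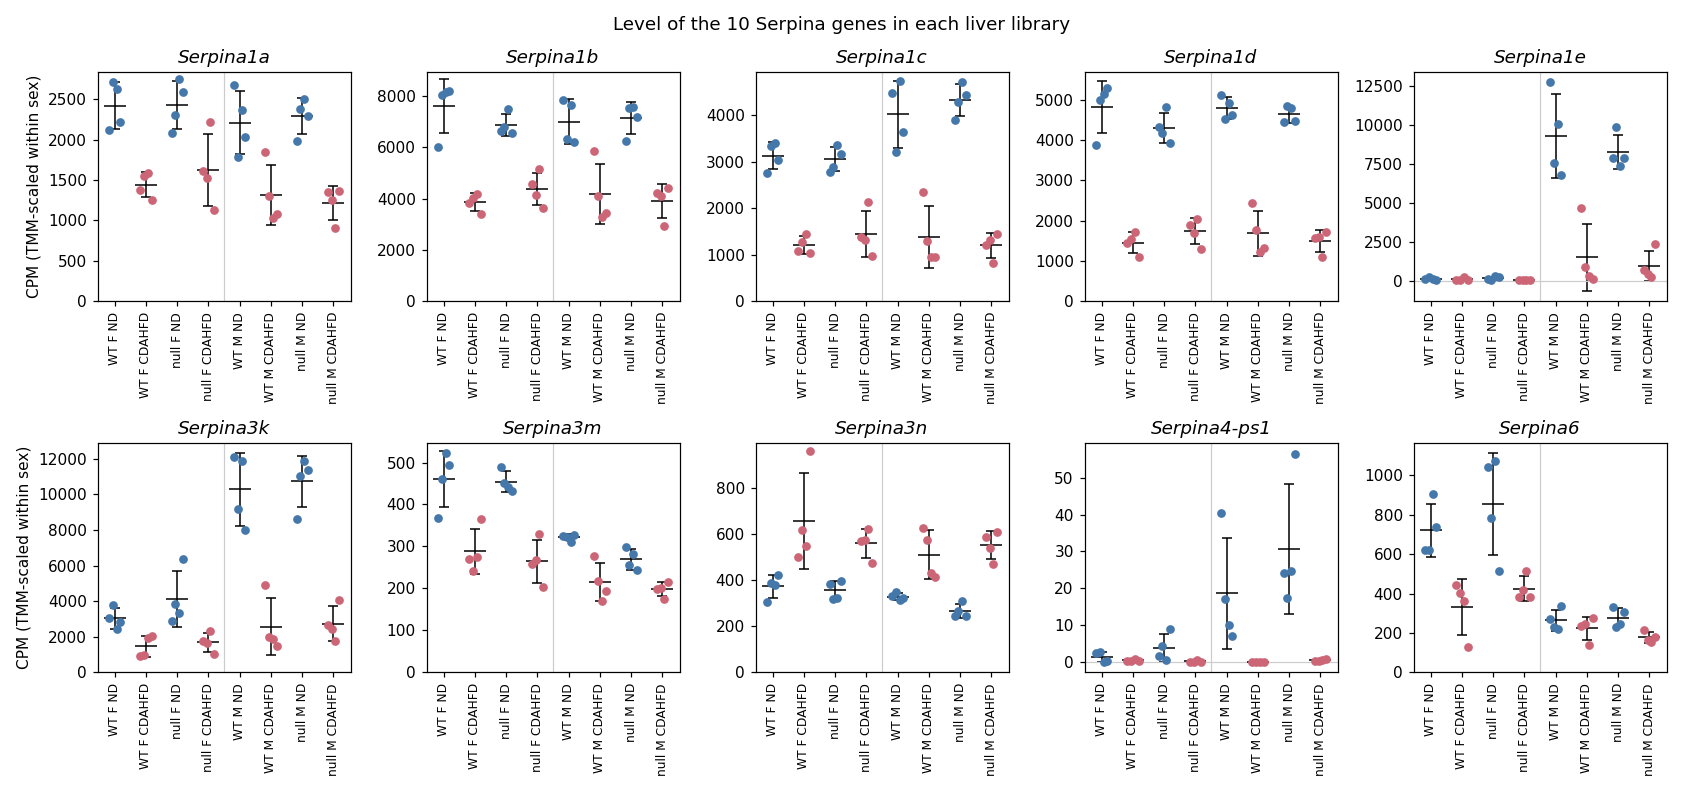
Level of each of the 10 genes in CPM (vertical axis, TMM-scaled within each sex) in the 32 livers, with 1 panel per gene and 1 point per library. Blue points are ND and pink points CDAHFD, and lines give the group mean ± SD of 4 libraries. Serpina3n is the panel in which the CDAHFD points lie above the ND points in all 4 pairs of groups, and Serpina1e has its highest points in ND-fed males.

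CDAHFD went with lower levels of most of these genes and a higher level of 1. In WT females 7 members fell, 1 rose and 2 were not called. In Cyp2b-null females 9 fell and 1 rose. In WT males 8 fell, 1 rose and 1 was not called, and in Cyp2b-null males 9 fell and 1 rose. The member that rose was Serpina3n each time. Serpina4-ps1 is counted among those that fell in Cyp2b-null females and in males of both genotypes. It passed the filter only through ND libraries, so its direction there is not independent of the filter. Among all genes tested, 24.1%, 30.8%, 33% and 37.4% were called in these comparisons, and 10.2%, 13.9%, 15% and 17.1% were called lower. The median log2 fold change of the 10 members was −1.01, −1.04, −1.13 and −1.27, beside a median of −0.00, 0.03, −0.02 and −0.01 over all genes. The diet comparisons of the 2 genotypes use separate libraries.

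Among the 4 Serpina1 genes that both sexes expressed at high levels, Serpina1d and Serpina1c fell by more than Serpina1b and Serpina1a in each comparison. In females the CPM of Serpina1d was 3881, 5004, 5148 and 5303 in ND-fed WT livers and 1449, 1554, 1708 and 1099 in CDAHFD-fed WT livers. In Cyp2b-null females it was 4335, 4168, 4818 and 3935 on ND and 1898, 1686, 2050 and 1303 on CDAHFD. In neither genotype did the diets overlap, and the fold changes were 3.33-fold lower in WT (adjusted p = 1.7e-07) and 2.49-fold lower in Cyp2b-null females (adjusted p = 4.44e-06). In WT males the gene read 5135, 4522, 4938 and 4626 CPM on ND and 2448, 1769, 1230 and 1317 on CDAHFD. In Cyp2b-null males it read 4463, 4854, 4806 and 4466, and 1576, 1593, 1097 and 1729. Serpina1d was thus 2.84-fold lower on CDAHFD in WT males and 3.10-fold lower in Cyp2b-null males, with adjusted p of 2.58e-06 and 7.43e-07.

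Serpina1c, which shares many reads with Serpina1a, also fell in all 4 comparisons without overlap. In WT males its CPM was 4488, 3208, 4733 and 3638 on ND and 2354, 1285, 947 and 947 on CDAHFD. In Cyp2b-null males it was 3896, 4289, 4709 and 4440 on ND and 1217, 1308, 823 and 1451 on CDAHFD. The log2 fold changes were −1.54 ± 0.24 (SE) in WT and −1.85 ± 0.24 in Cyp2b-null males. In females the means went from 3133 ± 296 to 1212 ± 192 CPM in WT (log2 fold change −1.37 ± 0.18) and from 3054 ± 262 to 1448 ± 489 CPM in Cyp2b-null mice (−1.08 ± 0.18).

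Serpina1b, the copy with the highest CPM in females, and Serpina1a fell less. Serpina1b read 6015, 8032, 8154 and 8177 CPM in ND-fed WT females and 3833, 4017, 4191 and 3389 in CDAHFD-fed WT females, 1.97-fold lower. In the other 3 pairs it was 1.57-fold lower in Cyp2b-null females, 1.68-fold lower in WT males and 1.82-fold lower in Cyp2b-null males, and the diets did not overlap in any pair. Serpina1a went from 2422 ± 295 to 1442 ± 155 CPM in WT females and from 2292 ± 220 to 1219 ± 211 in Cyp2b-null males, with no overlap. In Cyp2b-null females (2433 ± 296 to 1626 ± 451) and WT males (2213 ± 389 to 1315 ± 374) single CDAHFD livers reached into the ND range, though the test called both (adjusted p = 0.0119 and 0.00297). The call in Cyp2b-null females was lost with scaling by library size only (log2 fold change −0.35, adjusted p = 0.0558).

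Serpina1e was a gene of the male liver. On ND its CPM was 12735, 7562, 10058 and 6789 in WT males and 7901, 9880, 7382 and 7873 in Cyp2b-null males. On CDAHFD it was 4664, 851, 311 and 116 in WT males and 664, 436, 213 and 2331 in Cyp2b-null males. All 8 CDAHFD livers were below all 8 ND livers, and within each CDAHFD group the values spread over more than 1 order of magnitude. Serpina1e was 6.25-fold lower in WT males (adjusted p = 0.0121) and 9.08-fold lower in Cyp2b-null males (adjusted p = 0.00323). A single liver weighed on each value. Without replicate 1 of the CDAHFD-fed WT males the log2 fold change was −4.43 in place of −2.64, and without replicate 4 of the CDAHFD-fed Cyp2b-null males it was −4.24 in place of −3.18. Those livers also had the highest summed hepatocyte markers of their groups, 108552 CPM against 63393 to 97255 and 91828 CPM as the top of 60243 to 91828, and the part of this in the result was not tested.

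In females Serpina1e was low and variable. It read 124, 219, 77.3 and 51.9 CPM in ND-fed WT, 19.2, 21.8, 230 and 23.7 in CDAHFD-fed WT, 121, 36.2, 259 and 207 in ND-fed Cyp2b-null, and 64.9, 10.9, 32.5 and 4.98 in CDAHFD-fed Cyp2b-null females. The diets overlapped in both genotypes. The change in WT females was not called (log2 fold change −0.67 ± 0.75, adjusted p = 0.574) but was −2.44 (adjusted p = 0.0135) without replicate 3 of the CDAHFD group. In Cyp2b-null females it was called lower (−2.51 ± 0.80, adjusted p = 0.0212). That call rested on single livers, as it was lost without replicate 3 of the ND group or without replicate 2 or 4 of the CDAHFD group, where the adjusted p reached 0.0631, and without replicate 1 of the CDAHFD group the log2 fold change was −3.30.

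The sum over the 5 copies does not depend on how counted reads were split among them. If reads that map to several genes were left out, the sum would lack them. The sum was 18102 ± 2153 CPM in ND-fed and 8038 ± 1005 in CDAHFD-fed WT females, and 16828 ± 1257 and 9215 ± 1876 in Cyp2b-null females. In males it was 27319 ± 4777 and 10035 ± 4883 in WT, and 26667 ± 1852 and 8743 ± 2168 in Cyp2b-null mice. The log2 fold changes of the sum were −1.17 ± 0.15, −0.87 ± 0.15, −1.45 ± 0.25 and −1.61 ± 0.25, all called, the largest adjusted p being 0.00021.

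The make-up of the sum changed as well. In WT males Serpina1e was 38.7%, 32.3%, 33.8% and 29.1% of Serpina1 counts on ND, and 27.2%, 9.14%, 4.58% and 1.68% on CDAHFD. In Cyp2b-null males it was 32.3%, 34.1%, 27.3% and 30.0% on ND and 7.35%, 5.01%, 3.56% and 20.7% on CDAHFD. The Serpina1b share made up most of the difference, going from a mean of 25.8% to 44.0% in WT males and from 26.7% to 45.5% in Cyp2b-null males, though the CPM of Serpina1b fell. In females, where Serpina1e was under 1% of the sum on average, the Serpina1b share rose by 6.29 points in WT and 7.09 points in Cyp2b-null mice, and the Serpina1d share fell by 8.70 and 6.77 points. An exact two-sided permutation test was run on each of the 5 shares in each of the 4 pairs of groups, 20 tests in all, of which 13 had an adjusted p under 0.05. The 5 shares of a library add up to the whole, so these tests are not independent. A fall of 1 share raises others without a rise in their CPM. With 4 against 4 libraries the smallest p possible is 0.0286, 0.044 after adjustment.

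**Figure D2:**
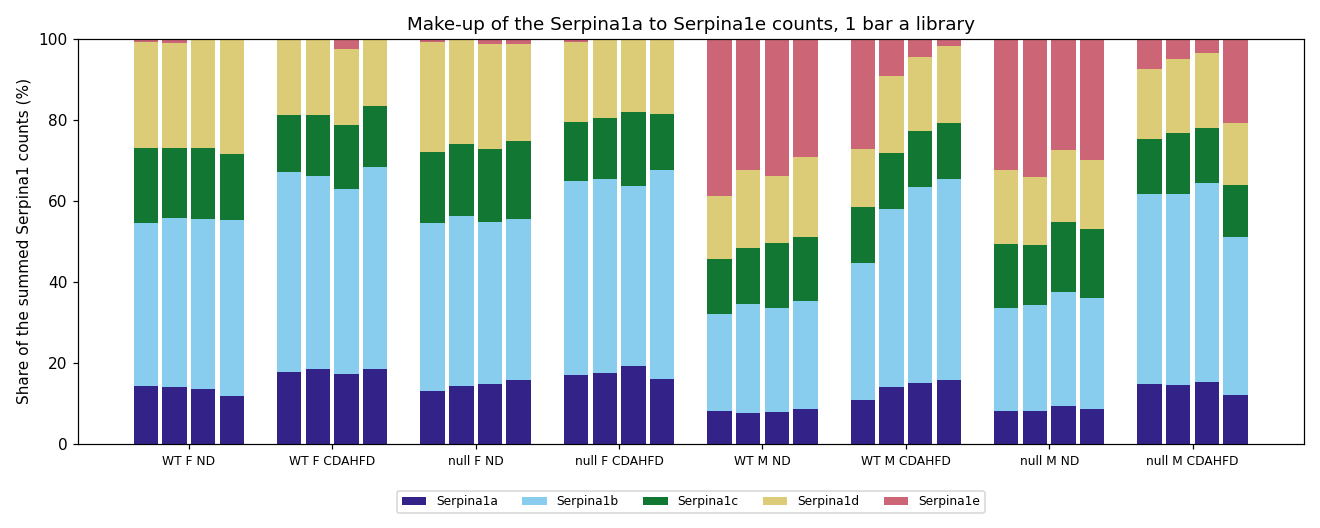
Share of the summed Serpina1 counts (vertical axis, %) taken by each of the 5 copies, as 1 stacked bar per library for all 32 livers, by group. Serpina1e takes 27.3% to 38.7% in ND-fed males, 1.68% to 27.2% in CDAHFD-fed males and only a thin band in females.

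Ratios between copies that are expressed in both sexes also moved with diet. Serpina1d over Serpina1b went from a mean of 0.637 to 0.374 in WT females, 0.627 to 0.394 in Cyp2b-null females, 0.691 to 0.403 in WT males and 0.654 to 0.382 in Cyp2b-null males. Serpina1c over Serpina1a went from 1.30 to 0.838, 1.26 to 0.882, 1.82 to 1.01 and 1.89 to 0.978 in the same order. In none of these 8 comparisons did the diets overlap, and each had an exact two-sided permutation p of 0.0286, unchanged by adjustment over the 8 tests, which is the smallest p these groups can give. A ratio within a library does not depend on its scaling, and shows that the copies changed unequally, not that any copy stayed level.

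Serpina3k, a plasma serpin known as a kallikrein-binding protein, was the highest of the Serpina3 genes. In WT males it read 12092, 9158, 11886 and 7990 CPM on ND and 4932, 2012, 1869 and 1481 on CDAHFD. In Cyp2b-null males it read 8618, 11031, 11881 and 11377 on ND and 2644, 2435, 1782 and 4088 on CDAHFD. The gene was 3.99-fold and 3.92-fold lower, without overlap (adjusted p = 3.44e-05 and 3.14e-05). In females it went from 3039 ± 580 to 1472 ± 594 CPM in WT and from 4114 ± 1569 to 1691 ± 538 CPM in Cyp2b-null mice, 2.06-fold and 2.43-fold lower, of which the WT call was lost when libraries were scaled to hepatocyte markers. Across the 16 male livers log2 CPM of Serpina3k and Serpina1e had a Pearson r of 0.968, and across the 16 female livers 0.72. These points share groups and libraries and the values are descriptions.

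Serpina3m, a neighbouring copy, was lower by smaller amounts. Its CPM in females was 461 ± 66.9 on ND and 288 ± 54.1 on CDAHFD in WT, and 454 ± 25.5 and 264 ± 51.8 in Cyp2b-null mice. In males it was 322 ± 6.92 and 215 ± 45.5 in WT, and 269 ± 24.9 and 198 ± 17.0 in Cyp2b-null mice. The log2 fold changes of −0.68 ± 0.16, −0.78 ± 0.16, −0.59 ± 0.13 and −0.44 ± 0.13 were all called, the largest adjusted p being 0.00925. With scaling by library size only, calls were lost in WT females (−0.35, adjusted p = 0.064), WT males (−0.21, adjusted p = 0.12) and Cyp2b-null males (−0.084, adjusted p = 0.548).

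Serpina3n, an acute-phase serpin that inhibits leukocyte proteases, rose. In WT females it read 305, 387, 381 and 423 CPM on ND and 502, 621, 548 and 960 on CDAHFD. In Cyp2b-null females it read 385, 317, 323 and 398 on ND and 573, 577, 622 and 474 on CDAHFD. Every CDAHFD liver was above every ND liver in both genotypes, and the rises were 1.76-fold (adjusted p = 0.00145) and 1.58-fold (adjusted p = 0.00681). In males the values were 333, 348, 316 and 322 on ND and 628, 573, 432 and 413 on CDAHFD in WT livers. In Cyp2b-null males they were 245, 266, 312 and 247 on ND and 589, 538, 472 and 609 on CDAHFD. Again no liver overlapped, with rises of 1.55-fold and 2.06-fold (adjusted p = 0.00113 and 4.12e-06). Among all genes tested, 13.9%, 16.9%, 18% and 20.3% were called higher in the same comparisons.

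Serpina6, the glucocorticoid carrier, was lower on CDAHFD in 3 of the 4 comparisons. In WT females it read 620, 622, 903 and 735 CPM on ND and 443, 400, 360 and 127 on CDAHFD, 2.17-fold lower without overlap (adjusted p = 0.00504). In Cyp2b-null females it read 1044, 785, 1071 and 515 on ND and 381, 420, 515 and 384 on CDAHFD, 2.01-fold lower, with 1 ND liver inside the CDAHFD range. In males the level was 265 ± 53.1 CPM on ND and 224 ± 58.5 on CDAHFD in WT, which was not called (log2 fold change −0.24 ± 0.18, adjusted p = 0.33). In Cyp2b-null males it was 278 ± 48.4 and 179 ± 27.5, 1.56-fold lower (adjusted p = 0.00873), a call lost with scaling by library size only (log2 fold change −0.28, adjusted p = 0.204).

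Serpina4-ps1, the pseudogene, was counted almost only on ND. In WT males its counts were 223, 105, 74 and 33 on ND and 0 in all 4 CDAHFD livers. Taking the floor of 3 counts per library as the level of those livers, the pseudogene was lower on CDAHFD by at least 36.5-fold. In Cyp2b-null males it had 220, 77, 119 and 260 counts on ND against 1, 1, 4 and 4 on CDAHFD, a fitted log2 fold change of −6.56 (adjusted p = 6.83e-07). In Cyp2b-null females there were 80 counts on ND, 53 of them in replicate 4, against 2 on CDAHFD, a ratio of 56.1 after scaling for depth, with an exact 95% counting interval of 15.0 to 471 that covers counting error only. In WT females 11, 7, 0 and 1 counts against 1, 1, 3 and 1 were not called different (adjusted p = 0.226). In females the pseudogene passed the filter in 14 of the 16 fits that left out 1 library.

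**Figure D3:**
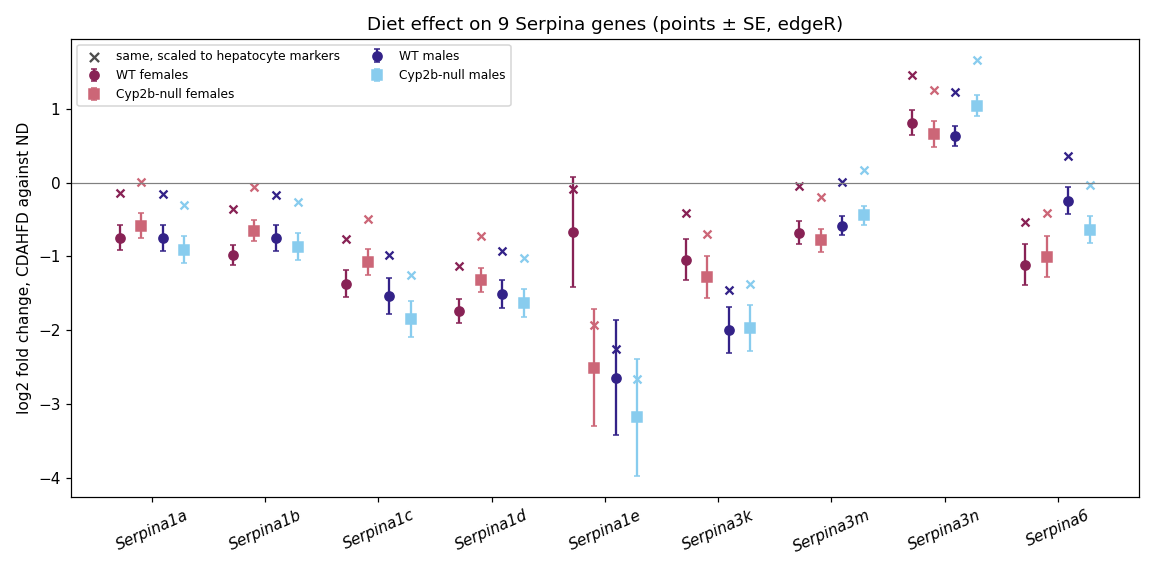
Diet effect (CDAHFD against ND) on 9 members as log2 fold change ± SE (vertical axis) for each gene (horizontal axis), in WT and Cyp2b-null females and males, without Serpina4-ps1, whose CDAHFD counts were at or near 0. Crosses give the same contrast with libraries scaled to 8 hepatocyte markers. Serpina3n is the only gene with every point above 0, and Serpina1e has the widest error bars.

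Markers of liver cell types moved with diet too. Of the 8 hepatocyte markers 6, 6, 7 and 6 were lower on CDAHFD in WT females, Cyp2b-null females, WT males and Cyp2b-null males, and their summed level was 131938 to 195103 CPM on ND against 79860 to 107531 on CDAHFD in WT females, and 124722 to 138117 against 63393 to 108552 in WT males. Of the macrophage markers 6 of 7 tested were higher in each comparison, and of the stellate cell and fibroblast markers 6, 7, 6 and 7 of 8. Of the 8 neutrophil markers only 3 were tested, and these were higher. The neutrophil sum was low, at 0.724 to 4.81 CPM on ND and 6.90 to 26.0 CPM on CDAHFD. Markers this low on ND pass the filter mainly through CDAHFD libraries, so the direction of those tested was largely set by the filter. In whole liver, fewer hepatocytes and less RNA of a gene per hepatocyte cannot be told apart. When libraries were scaled to the hepatocyte markers, an alternative chosen after the data were seen, the median of all genes shifted by 0.60 to 0.63 on the log2 scale and the share of called genes that were higher went from 57.6%, 55.0%, 54.6% and 54.3% to 96.5%, 96.5%, 95.8% and 95.0%. On that scale Serpina1c and Serpina1d still fell in all 4 comparisons (log2 fold changes −0.49 to −1.25 and −0.72 to −1.13), Serpina1e in 3, Serpina3k in 3 with its call lost in WT females (−0.41, adjusted p = 0.179), and Serpina3n rose in all 4 (1.23 to 1.67). Serpina3m (−0.19 to 0.18) and Serpina6 (−0.54 to 0.37) were called in none, Serpina1a only in Cyp2b-null males (−0.30, adjusted p = 0.0433) and Serpina1b only in WT females (−0.36), and the signs of Serpina1a in Cyp2b-null females, Serpina3m in males and Serpina6 in WT males turned. Subtracting the shifted median of all genes undoes this rescaling and gives back values near those under TMM. It gave −0.62 for Serpina1a in Cyp2b-null females and −0.60 for Serpina3m in WT males, which is no further support for a fall.

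Loss of Cyp2b was compared with WT on each diet in each sex, and no member was called in any of these 4 comparisons. The lowest adjusted p among the members was 0.795 and 0.826 in females on ND and CDAHFD and 0.571 and 0.9999 in males. Calls were rare among all genes too, at 0.0756%, 0.0227%, 0.0371% and 0.0297% of those tested. The count of all genes in ND-fed males, 5 here, was 61 by DESeq2, 29 without replicate 2 of the WT group, 10 without replicate 4 of the Cyp2b-null group, 3 without replicate 4 of the WT or replicate 3 of the Cyp2b-null group and 2 without replicate 2 of the Cyp2b-null group. The count in CDAHFD-fed males, 4 here, was 1 or 2 without any 1 of the CDAHFD-fed WT libraries, without replicate 1, 3 or 4 of the CDAHFD-fed Cyp2b-null group or without replicate 3 of the ND-fed Cyp2b-null group. The member with the lowest p was Serpina3n in ND-fed males, at 245 to 312 CPM in Cyp2b-null and 316 to 348 in WT livers. These groups did not overlap. For 1 gene and 1 comparison fixed beforehand, 4 against 4 libraries do so by chance with a probability of 0.0286. Serpina3n was picked as the lowest p of 10 members in 4 comparisons, so that value does not apply to it. The log2 fold change of −0.30 ± 0.14 missed the threshold of edgeR's test (adjusted p = 0.571). Serpina3m, also in ND-fed males, likewise did not overlap between genotypes (−0.26 ± 0.13, adjusted p = 0.625). Nor did Serpina4-ps1 in CDAHFD-fed males, at 0 counts in each WT liver and 1, 1, 4 and 4 in Cyp2b-null livers, which is at or near the floor of 3 counts. The share of all genes whose groups do not overlap was not worked out. In ND-fed females Serpina4-ps1 had 80 counts in Cyp2b-null and 19 in WT livers (adjusted p = 0.795). Serpina1e in CDAHFD-fed females had a log2 fold change of −1.44 ± 0.78 (adjusted p = 0.826).

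The diet effect was also compared between genotypes by an interaction term, which called no member in either sex. In females edgeR called 0 of all genes tested, with 830 at an unadjusted p under 0.05, and DESeq2 called 2. In males 0.00743% of all genes were called. The member with an unadjusted p under 0.05 was Serpina3n in males, whose rise was larger in Cyp2b-null mice by 0.41 ± 0.19 on the log2 scale (edgeR adjusted p = 0.82). For Serpina1d in females the fall was smaller in Cyp2b-null mice by 0.42 ± 0.22 (adjusted p = 0.76). For Serpina6 in males, called in one genotype and not in the other, the interaction was −0.40 ± 0.26 (adjusted p = 0.874), so a difference between genotypes was not shown.

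Males and females were set against each other on ND in WT mice, in a fit over both tables, and 3 members were called higher in males and 2 lower, where 17.8% of all genes were called, 8.35% higher and 9.45% lower. On that common scale Serpina1e read 12935, 7696, 10247 and 6918 CPM in males against 124, 215, 76.8 and 51.7 in females, 81.6-fold higher (adjusted p = 3.52e-05). Serpina3k read 12282, 9321, 12109 and 8142 against 3058, 3744, 2421 and 2813, 3.48-fold higher (adjusted p = 0.000135). Serpina4-ps1 read 41.0, 17.4, 10.2 and 7.22 against 2.19, 2.68, 0 and 0.172, 15.8-fold higher in the fit (adjusted p = 9.05e-05). The other called members were lower in males. Serpina6 read 276, 234, 226 and 344 against 616, 610, 897 and 732, 2.64-fold lower (adjusted p = 0.000211), and Serpina3m was 1.40-fold lower (328 ± 6.88 against 457 ± 66.7 CPM, adjusted p = 0.0197). The call of Serpina3m was lost without replicate 3 or 4 of the females, and with the replicate number as a block (log2 fold change −0.26, adjusted p = 0.468). Serpina1a, Serpina1b, Serpina1d and Serpina3n differed by −0.14 to 0.03 on the log2 scale and were not called, and Serpina1c was at 0.40 ± 0.22 (adjusted p = 0.223). The Serpina1 sum was 1.55-fold higher in males (27803 ± 4833 against 17936 ± 2101 CPM, adjusted p = 0.0353).

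Whether the diet effect differed between the sexes was tested by an interaction across both tables, and no member was called in either genotype, with 0.97% of all genes called in WT and 3.4% in Cyp2b-null mice. In WT mice the fall of Serpina3k was larger in males by −0.93 ± 0.44 on the log2 scale (adjusted p = 0.454), and without replicate 1 of the CDAHFD-fed males by −1.46 (adjusted p = 0.0449). Serpina4-ps1 had the lowest p of the members in WT mice (fitted difference −7.83, adjusted p = 0.188), with all CDAHFD-fed WT males at 0 counts, and was called by DESeq2 (adjusted p = 0.00502) and without the filter on low counts (adjusted p = 1.59e-06). Serpina6 fell less in males by 0.89 ± 0.36 (adjusted p = 0.315). For Serpina1e, called in males and not in females, the difference was −1.95 ± 1.17 (adjusted p = 0.623). In Cyp2b-null mice the Serpina1 sum differed by −0.72 ± 0.30 (adjusted p = 0.177).

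Other serpins of the liver did not move as one with these genes. Of 7 tested other clade A serpins, 1, 2, 4 and 3 were higher and 1, 0, 1 and 1 lower on CDAHFD in WT females, Cyp2b-null females, WT males and Cyp2b-null males. Serpina10, which inhibits factor Xa with protein Z, was higher in males (log2 fold change 0.42 in WT and 0.53 in Cyp2b-null mice). Serpina7, thyroxine-binding globulin, was higher in WT females (1.08) and WT males (0.51) and not called in Cyp2b-null mice (−0.15 and 0.35). The interaction of diet and genotype called 0 of these 7 genes in either sex, so a difference between genotypes was not shown. In an edgeR fit of all 8 groups the calls in WT males were lost for Serpina10 (0.41, adjusted p = 0.0545) and Serpina7 (0.51, adjusted p = 0.12). Of 12 tested serpins of other clades, 4, 3, 5 and 5 were higher and 5, 3, 6 and 7 lower. Among them Serpinc1, antithrombin, fell in all 4 comparisons (−0.95, −0.61, −0.83 and −0.83).

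Of 11 proteases listed as targets, 5 passed the filter on low counts. Of these 3, 4, 4 and 4 were higher and 1 was lower each time. Elane, neutrophil elastase, had 0 counts in ND-fed WT females and was counted in every other group, within the low neutrophil sum given above. Whether the tested proteases are targets of these members was not tested. Ctss, cathepsin S of macrophages, rose the most of those named here (2.10, 2.28, 3.96 and 3.86), and the lysosomal protease gene Ctsb rose too (0.46, 0.72, 0.86 and 1.01). Klkb1, plasma kallikrein, which hepatocytes make, fell in all 4 (−0.65, −0.69, −1.20 and −1.03). Of 12 glucocorticoid genes, fixed because of Serpina6, 1, 0, 4 and 4 were higher and 5, 7, 3 and 2 lower. Hsd11b1, the enzyme that regenerates active glucocorticoid, fell in all 4 (−1.41, −1.05, −1.35 and −1.43). Tat, a glucocorticoid target that degrades tyrosine, fell in 3 (−2.01, −1.55 and −0.76) and was at −0.22 in Cyp2b-null males, and Pck1, of gluconeogenesis, fell in females (−1.31 and −1.02), though by library size only the call in Cyp2b-null females was lost (−0.77, adjusted p = 0.0754). In males Pck1 was at −0.10 and 0.10 and not called, and the sex difference of its diet effect was not called in either genotype (1.23 and 1.15, adjusted p = 0.295 and 0.175).

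Acute-phase genes moved in both directions. Of 17 on the list, 7, 7, 8 and 10 were higher and 5, 6, 5 and 4 lower in the 4 comparisons, with a median log2 fold change of 0.38, 0.49, 0.29 and 0.46. Hp, haptoglobin, rose (1.29, 1.37, 0.68 and 0.73), as did Hpx, hemopexin (0.92, 1.16, 0.89 and 0.94). Fga, a fibrinogen chain, fell (−0.58, −0.68, −0.81 and −0.57), with its sign turned in WT females and Cyp2b-null males on the hepatocyte scale. Of 8 tested genes of interleukin-6 family signalling, 1, 1, 1 and 2 were higher and 1, 3, 1 and 1 lower, with Lifr, a receptor subunit, lower in all 4 (−1.14, −0.98, −1.63 and −1.55).

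Other plasma proteins of the hepatocyte fell more often than they rose. Of 16 on the list, 12, 8, 13 and 13 were lower and 0, 0, 1 and 0 higher, with Alb, albumin, at −0.77, −0.72, −0.65 and −0.67. Of 16 secretory pathway genes, 6, 6, 7 and 7 were lower. Hsp90b1, an endoplasmic reticulum chaperone, fell (−0.60, −0.87, −0.52 and −0.84), with its sign turned in WT males on the hepatocyte scale. Of 12 hepatocyte transcription factors, 2, 3, 7 and 4 were lower and 0, 0, 0 and 1 higher, and Hnf4a, a master regulator of hepatocyte genes, fell in all 4 (−0.58, −0.78, −0.74 and −0.39), turning sign on the hepatocyte scale in WT females and Cyp2b-null males. Of 14 tested growth hormone and sex-dependent genes, 7, 6, 7 and 8 were lower and 1, 1, 2 and 2 higher. Ghr, the growth hormone receptor, fell in all 4 (−1.20, −1.09, −1.03 and −1.41). Cyp2d9, a male-dominant cytochrome P450, fell in males (−2.35 and −2.50) and was not called in females (0.42 and −0.17).

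The genes whose pattern was most like each member were found by Pearson r of log2 CPM over the 16 libraries of each table, among 7924 genes, as a description without a test, since libraries share groups and depth. Serpina1b, Serpina1c and Serpina1d each had Apoh, a plasma glycoprotein, first, with r of 0.981, 0.985 and 0.978 in females and 0.967, 0.982 and 0.993 in males. Serpina1a had Ttr, transthyretin (0.978 and 0.952), and Serpina3m had Plg, plasminogen (0.930 and 0.958). Serpina3n had Hp (0.927 and 0.935), Hpx (0.896 and 0.947) and Lcn2, a siderophore-binding acute-phase protein (0.92 and 0.909). Serpina1e had Mup7, a major urinary protein gene (0.81 and 0.933), and next Serpind1, a serpin of another clade (0.813 and 0.929). Serpina3k had Ces3b, a carboxylesterase (0.887 and 0.98), Serpina6 had Dclk3 (0.895 and 0.792) and Serpina4-ps1 had Gpd1 (0.852 and 0.932). Among the members Serpina3n was the only one with a negative r with every other, from −0.49 to −0.87 in females and from −0.55 to −0.88 in males.

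**Figure D4:**
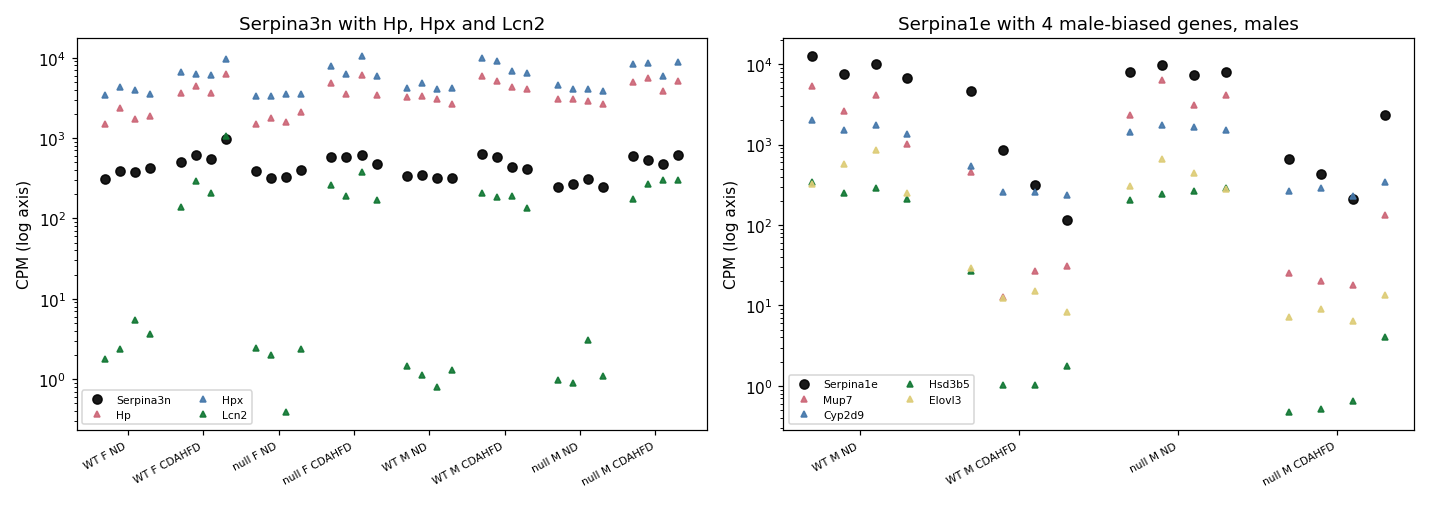
Level in CPM on a log axis (vertical) against library (horizontal) for Serpina3n with Hp, Hpx and Lcn2 in all 32 livers (left) and for Serpina1e with Mup7, Cyp2d9, Hsd3b5 and Elovl3 in the 16 male livers (right), where Hsd3b5 and Elovl3 were picked after their values were seen. On the left the CDAHFD livers lie higher for all 4 genes, and on the right replicate 1 of the CDAHFD-fed WT males lies above the other 3 livers of its group for Serpina1e and Mup7.

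The CDAHFD-fed male livers with the highest Serpina1e were compared with male-dominant genes chosen for likeness to Serpina1e or after their values were seen, as a description. Mup7 read 450, 12.9, 26.6 and 30.8 CPM in CDAHFD-fed WT males, where Serpina1e read 4664, 851, 311 and 116. In CDAHFD-fed Cyp2b-null males Mup7 read 25.0, 20.0, 17.8 and 133, with Serpina1e at 664, 436, 213 and 2331. Hsd3b5, a male-dominant steroid dehydrogenase, read 26.7, 1.02, 1.04 and 1.75 and then 0.475, 0.513, 0.658 and 4.04. In both groups the liver highest for Serpina1e was highest for these genes too. That was also so for Cyp2d9 (546 CPM in WT and 344 in Cyp2b-null males) and Elovl3 (29.5 and 13.5). For Cyp4a12a it was so in WT males (57.1), whereas in Cyp2b-null males replicate 1 was highest (78.9) and replicate 4 read 40.2. Likeness to Serpina1e was as high for some genes not chosen as male-dominant. Across the 16 male livers log2 CPM of Serpina1e had a Pearson r of 0.953 with Serping1, 0.943 with Fga and 0.939 with Alb. The values were 0.933 with Mup7, 0.930 with Cyp2d9, 0.926 with Hsd3b5, 0.896 with Elovl3 and 0.824 with Cyp4a12a.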

How the data were processed

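Total RNA from liver was extracted with TRIzol and sequenced as paired 150-base reads from NEB Next Ultra libraries. The authors deposited raw counts per gene, 1 table per sex, made with FastQC, Trimmomatic, GSNAP and Subread on GRCm38.p6. The settings for strand and for reads that map to several genes, and the versions, are not given in the sources used here. The tables have 41585 gene rows, of which 27 carry date-like names and 4 have a symbol listed more than once, and 0 columns of values were left unused. All 32 libraries were grouped by their labels, with totals of 2906411 to 10166959 counts. A count of 3, the floor used for 0, was worth 0.295 to 1.03 CPM, for counting error only.

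The counts were tested with edgeR 4.0.16 in R 4.3.3: low counts were removed with filterByExpr (minimum count 10, minimum total 15), libraries were scaled by TMM, and quasi-likelihood fits were made over the 4 groups of each table, or over all 8 groups for comparisons between sexes. Adjusted p is Benjamini-Hochberg over all genes of a fit, and the step was tested on simulated data. Replicates of a group differed by more than sampling noise (chi-square per degree of freedom 3.17 to 59.5 over 48 pairs). Correlations used log2(CPM + 0.5) with a mean of 10 CPM or more required of a gene. Alternatives were relative log expression (RLE) scaling within edgeR, the test of DESeq2 1.42.0, library size only and no filter on low counts. Others were a minimum of 1 CPM in 4 or more libraries, a replicate block, each library left out and Serpina1 genes summed. The last were a fit of the compared groups, a fit of all 8 groups, and scaling to hepatocyte markers.

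The members and gene lists were chosen with earlier results of these data known. Named genes were the 10 members, the Serpina1 sum, from each list up to 4 tested genes with the highest mean CPM or a role beside a member, the genes that check the labels, and the 3 genes most like each member by mean r over both tables. Sequences came from RefSeq promoters and GENCODE vM21 transcripts, both on GRCm38.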

Additional observations from a re-analysis of the deposited data

Results flagged for a closer look

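In 80 groups of 4 libraries, 10 members in 8 groups, a library was taken as standing apart where its gap to the nearest other library was over Dixon's 95% critical share of the group's range, which chance alone gives in about 1 group in 20. This held for 5 groups. In CDAHFD-fed WT males replicate 1 stood above the others for Serpina1e (4664 CPM against 116 to 851) and for Serpina3k (4932 CPM against 1481 to 2012). The same liver had the lowest summed macrophage markers of its group, 512 CPM against 733 to 1051, and the highest summed hepatocyte markers. Serpina1e in CDAHFD-fed WT females was 230 CPM in replicate 3 against 19.2 to 23.7 in the other livers, and Serpina1b in ND-fed WT females was 6015 CPM in replicate 1 against 8032 to 8177. Serpina4-ps1 in CDAHFD-fed Cyp2b-null females was at 0.361 CPM in replicate 3, from 2 counts, where the other livers had 0.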

How the results depend on the processing

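The number of members called for diet was 8 to 9 in WT females, 9 to 10 in Cyp2b-null females, 9 in WT males and 10 in Cyp2b-null males when any 1 library was left out, and 4 to 5 for males against females on ND; for the sex difference of the diet effect in WT mice it was 0 to 1, the 1 being Serpina3k without replicate 1 of the CDAHFD-fed WT males. With libraries scaled to hepatocyte markers it was 4 in WT females and 6 in Cyp2b-null females, on a scale that moves the median log2 fold change of all genes up by 0.60 to 0.63. On that scale the calls of Serpina1a, Serpina1b and Serpina3m were also lost in WT males. In Cyp2b-null males those of Serpina1b, Serpina3m and Serpina6 were lost. Without a filter on low counts 1 member was called for genotype on CDAHFD in females, 1 in males, 1 for the interaction in females, 4 for the sex difference in WT mice and 1 in Cyp2b-null mice, and DESeq2 called 1, Serpina4-ps1, for the sex difference in WT mice; the cause was not tested. With Serpina1 genes summed, males against females called 9, the sum standing for its 5 genes.

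On the hepatocyte scale log2 fold changes turned to 0.0083 for Serpina1a in Cyp2b-null females, 0.012 and 0.18 for Serpina3m in WT and Cyp2b-null males, and 0.37 for Serpina6 in WT males, which was 0.14 by library size only. Other genes turned as well: in WT females Agt 0.21, Serpinf2 0.15, Serpind1 0.24, Nr3c1 0.13, Fgb 0.043, Fga 0.075, Hnf4a 0.044 and Igf1 0.13; in Cyp2b-null females Serpind1 0.27, Stat3 0.25 and Nr1h4 0.22; in WT males Serpinf2 0.15, Serping1 0.081, Nr3c1 0.10, Cebpa 0.14 and Hsp90b1 0.084; in Cyp2b-null males Serpinf2 0.22, Serping1 0.073, Serpind1 0.28 (0.022 by library size only), Nr3c1 0.018, Fga 0.05043, Hnf4a 0.24, Cebpa 0.24, Calr 0.22 and Pdia3 0.22. Scaling by library size only shifted the median of all genes by 0.28 to 0.37 and the share of called genes that were higher to 88.8%, 85.8%, 89.8% and 86.3%.

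Replicate numbers did not pair the libraries, as 11 of 32 correlated best with a library of their own number and the median r of same-numbered libraries was 0.00 in females and 0.04 in males. With a replicate block 8, 10, 9 and 10 members were called for diet and 4 for males against females, the gene lost being Serpina3m. Over single members, 1475 alternative values kept their call, 8 gained it, 22 lost it and 5 turned. Depth limits Serpina4-ps1, and shared reads limit Serpina1a, Serpina1b, Serpina1c and Serpina1d.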
